A study of Mus musculus with 4 samples.

Results

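The distal end of mouse chromosome 2 carries a cluster of KRAB zinc finger genes, and its 46 rows are described here out of the 25587 gene rows of the RNA-Seq table. Members were chosen by position only, as every row on chromosome 2 that starts at or after 174.9 Mb and ends by 178.2 Mb on the GRCm38 assembly. The stretch was picked because it holds Gm14296, whose values in these 4 libraries were already known, so the levels of Gm14296 and of its neighbours are given as a description. The first member along the chromosome was Gm14444, at chr2:175010241-175019248, and the last was Zfp931, at chr2:178067695-178078476. Just outside lay Gm14616, which was listed at 0 in all 4 libraries, and Phactr3, which starts inside the limit but ends at base 178338492 and had 8.59, 7.33, 7.48 and 6.87 RPKM in NGO, GO1, GO2 and FGO. Gm14444, just inside, had 6.88, 8.39, 6.01 and 4.14 RPKM, and Zfp931 had 4.38, 9.22, 7.46 and 4.84 RPKM in the same order.

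KRAB zinc finger proteins bind DNA through a row of C2H2 zinc fingers, each a short loop held by a zinc ion between a pair of cysteines and a pair of histidines. The KRAB domain at the other end of the protein recruits the corepressor TRIM28 (also called KAP1), which in turn brings in the histone methyltransferase SETDB1 and keeps target sequences, many of them transposable elements, silent. The genes arise by tandem duplication, so that neighbours in a cluster are often near copies of each other, and in the early mouse embryo some family members are known to protect imprinted methylation.

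The study sequenced ribosomal-RNA-depleted total RNA of wild-type C57BL/6Babr oocytes, pooled per library, at successive stages of folliculogenesis. The mice were 5 to 20 days old over the whole series, youngest for NGO and oldest for FGO, so that age differs between the libraries of each pair along with stage. NGO were non-growing oocytes, GO1 and GO2 were growing oocytes, and FGO were oocytes at the germinal vesicle (GV) stage. Each stage was 1 library. Second-strand marking with dUTP was used for NGO and FGO, and the ScriptSeq v2 kit for GO1 and GO2, so changes were measured from NGO to FGO and from GO1 to GO2 only, and stage and kit cannot be told apart across these pairs. With 1 library per stage there was no replicate check and no test, and a difference below is a difference between these libraries. The deposited values are RPKM, that is, read numbers divided by exon length in kilobases and by a total for each library. Reads were recovered from them, 61680488, 71900908, 133082086 and 69036587 on genes in NGO, GO1, GO2 and FGO, of which the 46 members held 71014, 82164, 142949 and 69834. Intervals are 95 % Poisson intervals and cover counting error only. In each library the recovered reads outnumber the raw sequencing reads that the paper lists, so these intervals are too narrow. All 12 oocyte marker genes were detected in each library, with summed levels between 4335 and 6619 RPKM. The 8 granulosa cell markers summed to between 2.43 and 10.5 RPKM, highest in FGO, where Cyp19a1 alone had 6.08 RPKM. The 6 markers of stroma and theca summed to 5.51 RPKM in NGO against 0.158 to 0.245 RPKM in the others. The 4 blood and endothelium markers among the rows summed to 2.70, 5.15, 8.29 and 9.71 RPKM in NGO, GO1, GO2 and FGO. Most of this was Pecam1, with 1.74, 5.15, 8.28 and 9.70 RPKM. In bulk samples of this kind, fewer cells of a type and less RNA per cell cannot be told apart.

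Most members carried the features of the family, and 35 of the 46 had both a KRAB domain pattern and fingers. GENCODE (release M21) classes 45 of the 46 as protein coding and Gm11008 as a long non-coding RNA. A short run of conserved KRAB residues was found in an annotated protein of 44 members (not of Gm11008 and Gm14409) and C2H2 fingers in the longest annotated protein of 36, with 3 to 25 fingers and a median of 13. Gm14295 had the longest row, 25 fingers in 834 residues. The 10 members with no finger in that protein were Gm14440, Gm14288, Gm11008, 2210418O10Rik, Gm11009, Gm14435, Gm14408, Gm14296, Gm14327 and C330013J21Rik. In Gm14440, Gm14288, 2210418O10Rik and Gm14296, 12, 12, 6 and 6 fingers appeared when whole transcripts were translated, outside the longest annotated protein. Whether these lie in another reading frame than the protein was not checked. Over all members 40 had fingers in some frame of a transcript. Equal numbers of members lay on each strand, 23 and 23.

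Most of their promoters were near copies too, and 4 are shown because they set the highest member beside a member with a nearly equal promoter and a low level, a window that 4 members share, and the partner of Gm14296. RefSeq (GRCm38.p6) gives a promoter window of 250 bases before and 50 bases after the start for 31 of the 46 members, and 27 of these starts lie within 100 bases of the 5′ end of the row. Of these 27 windows, 25 matched another of them over at least 90 % of their bases, while the best match of Gm14393 was 225 of 300 bases and that of C330013J21Rik 236. Capitals mark the letters CCAAT, the box bound by the factor NF-Y, and ATTGG, the same letters on the other strand. Gm14420 is the member with the highest level in every library, Gm8898 has a promoter nearly the same as that of Gm14420, and the window of Gm4724 is identical, base for base, to those of Gm2026, Gm14434 and Gm14308. 2210418O10Rik is the near copy of part of Gm14296. The windows are chr2:177464492-177464791 on the plus strand for Gm14420, chr2:175931051-175931350 on the minus strand for Gm8898, chr2:175435728-175436027 on the minus strand for Gm4724 and chr2:176226315-176226614 on the plus strand for 2210418O10Rik.
Gm14420: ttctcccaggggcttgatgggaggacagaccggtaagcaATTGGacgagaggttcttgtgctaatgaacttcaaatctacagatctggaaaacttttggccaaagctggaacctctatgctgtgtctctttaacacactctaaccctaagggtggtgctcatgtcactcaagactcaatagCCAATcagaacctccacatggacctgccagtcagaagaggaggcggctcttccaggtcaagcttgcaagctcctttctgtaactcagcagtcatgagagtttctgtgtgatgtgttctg
Gm8898: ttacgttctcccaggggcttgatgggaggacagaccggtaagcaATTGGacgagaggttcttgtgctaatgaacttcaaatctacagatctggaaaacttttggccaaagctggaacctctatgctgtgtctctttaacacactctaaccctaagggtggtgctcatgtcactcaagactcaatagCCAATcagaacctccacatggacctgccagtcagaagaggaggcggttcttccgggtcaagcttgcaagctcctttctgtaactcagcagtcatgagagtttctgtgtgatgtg
Gm4724: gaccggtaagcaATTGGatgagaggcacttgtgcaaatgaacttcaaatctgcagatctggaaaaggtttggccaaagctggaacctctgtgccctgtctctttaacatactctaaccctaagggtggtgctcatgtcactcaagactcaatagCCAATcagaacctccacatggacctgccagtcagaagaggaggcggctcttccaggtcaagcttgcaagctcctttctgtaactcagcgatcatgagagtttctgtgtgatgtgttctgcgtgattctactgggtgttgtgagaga
2210418O10Rik: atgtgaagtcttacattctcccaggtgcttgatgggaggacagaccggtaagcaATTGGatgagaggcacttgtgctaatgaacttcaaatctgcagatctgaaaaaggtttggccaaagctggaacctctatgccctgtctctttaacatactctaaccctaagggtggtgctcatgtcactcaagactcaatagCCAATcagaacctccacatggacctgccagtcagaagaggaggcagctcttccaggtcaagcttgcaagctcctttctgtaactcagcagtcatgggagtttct

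CCAAT or ATTGG occurred at least 2 times in all 27 promoters whose start lies at the row's 5′ end, against 11.7 % of all 32851 RefSeq promoters of the mouse. ATTGG stood exactly 142 bases before CCAAT, from first letter to first letter, in 25 of these 27 promoters. Among all 32851 promoters 34, or 0.103 %, held this spacing, those of the members included, and the spacing was noticed in these windows before it was counted. Most of the 27 windows are near copies of each other. They cannot be taken as separate observations beside the shares over all promoters. CpG dinucleotides were few, with a median of 4 in the 27 windows and 7 in all promoters. Of 351 pairs of these windows 7 were identical over the 300 bases and the median identity was 86.7 %, and Gm14420 and Gm8898 had 293 bases in common when aligned. A match of letters is a description of the window and does not show that a factor binds there. Like promoters went with unlike listed levels in these examples, which were picked with their levels known. Of the 100-base exon windows of Gm8898, Gm4724, Gm2026, Gm14434 and Gm14308, 79.9, 96.1, 95.2, 99.7 and 96.6 % were also found in another gene. The split of reads among such copies is uncertain, so unlike listed levels need not be unlike expression. Gm14420 had 66.0 RPKM in NGO and 117 RPKM in FGO, while Gm8898 had 0.835 and 0.383 RPKM. Of the 4 genes with 1 and the same promoter, Gm4724 had 4.0 RPKM in NGO and Gm2026, Gm14434 and Gm14308 had 0.490, 0.267 and 0.206 RPKM.

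Reads were assigned to the cluster in every library. Members ran from 0.0524 to 43.9 RPKM in GO1 and from 0.0102 to 83.1 RPKM in GO2. At least 3 reads were found for 43 members in NGO, 46 in GO1, 44 in GO2 and 43 in FGO. Over all 25587 rows, 16565, 16902, 18110 and 16710 had at least 3 reads in the same order. The split of reads among copies is uncertain, so a detected member need not be an expressed one. The median member had 0.814, 1.59, 0.931 and 0.388 RPKM in NGO, GO1, GO2 and FGO, where the median over all rows was 0.153, 0.143, 0.166 and 0.173 RPKM. The number of members at 1 RPKM or more was 20, 28, 22 and 17, a count that was not taken over all rows. The summed level hardly differed between libraries, at 225, 224, 213 and 220 RPKM, although what made it up did.

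**Figure D1:**
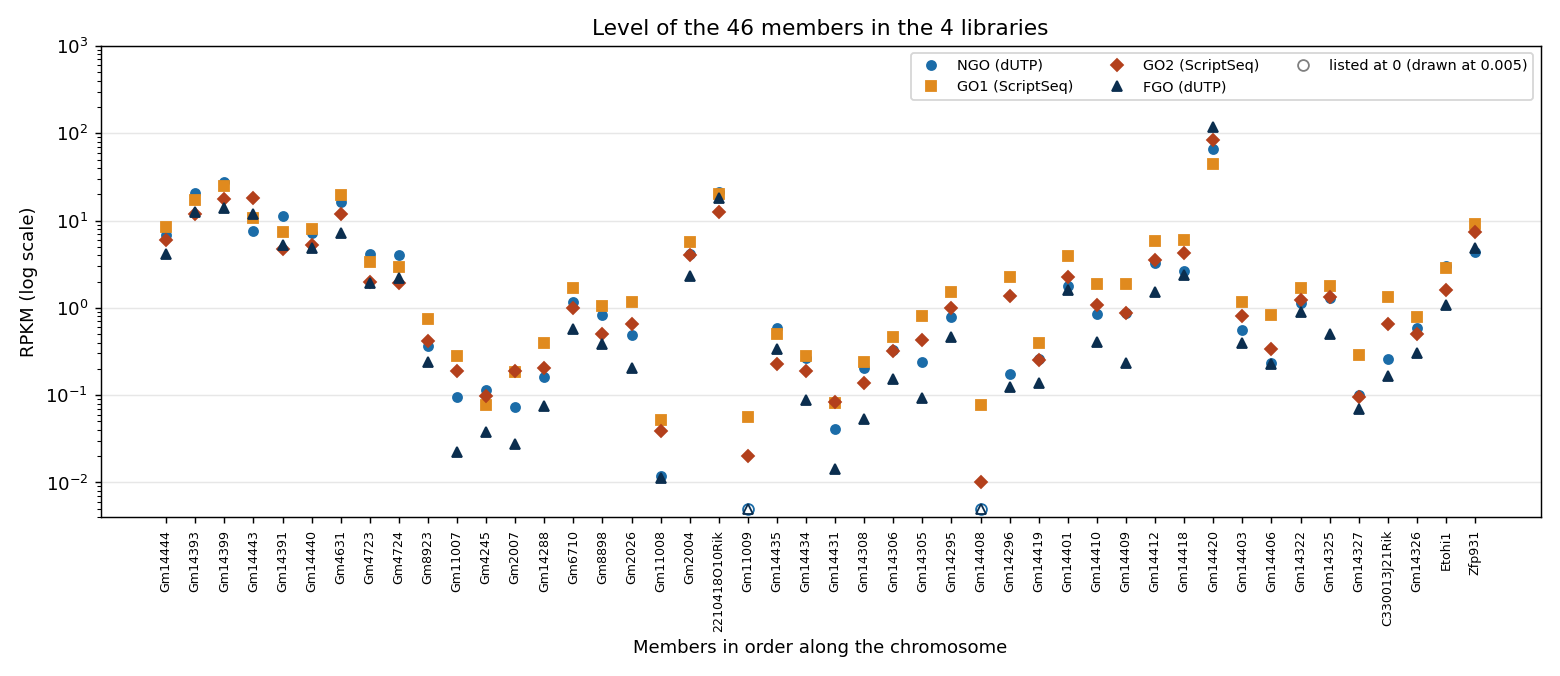
RPKM on a log axis for each of the 46 members, placed in their order along the chromosome, with 1 symbol per library (NGO and FGO, dUTP; GO1 and GO2, ScriptSeq). Open symbols mark values listed at 0, which are drawn at 0.005. Gm14420 stands highest in all 4 libraries, the first 9 members from Gm14444 to Gm4724 lie between 1.92 and 27.7 RPKM, and most members between Gm8923 and Gm14296 lie below 1 RPKM, with Gm2004 and 2210418O10Rik standing above them.

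Levels differed along the chromosome, both between stretches and within them, and no measure of grouping was taken. Gaps of over 100 kb between neighbouring members divide the cluster into 5 stretches. The first, of 10 members from Gm14444 to Gm8923, held 106, 103, 80.0 and 64.2 RPKM in NGO, GO1, GO2 and FGO and had the highest median, 7.40 RPKM in NGO. The next, of 7 members from Gm11007 to Gm2026, summed to 2.93, 4.85, 2.82 and 1.33 RPKM. Their median share of 100-base exon windows found in another gene was 100 %. A stretch of 4 members from Gm11008 to Gm11009 held 25.4, 26.1, 16.7 and 20.6 RPKM, most of it from 2210418O10Rik. The 18 members from Gm14435 to Gm14406 summed to 79.1, 72.0, 100 and 126 RPKM, in which Gm14420 was by far the largest. The last 7 members, from Gm14322 to Zfp931, had 10.8, 17.9, 12.9 and 7.85 RPKM.

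Gm14420 was the highest member in every library and the largest of the few that were higher in the later library of each pair. It is a protein-coding gene at chr2:177464733-177478129 on the plus strand, named Zfp970 in GENCODE and RefSeq, with 14 fingers in 522 residues. It had 66.0, 43.9, 83.1 and 117 RPKM in NGO, GO1, GO2 and FGO, on 15859, 12098, 43568 and 30484 reads. FGO was thus the highest library and GO1 the lowest. Gm14420 stood at the 98.5th, 97.6th, 99.0th and 99.3rd percentile of all rows in the same order. On the scaled read counts it was 1.84-fold higher in FGO than in NGO (log2 change 0.88) and 1.85-fold higher in GO2 than in GO1 (log2 change 0.89). Under the alternatives of scaling, prior count and filter the 2 log2 changes stayed between 0.83 and 0.92. Of its 100-base windows, 17.4 % were found in another gene, 12.01 % in Gm14440.

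Gm14443 was the only other member that was higher in the later library of both pairs, out of the 41 members with at least 20 reads in each pair. It lies at chr2:175166255-175175871 on the minus strand and encodes 610 residues with 16 fingers. It had 7.66, 10.6, 17.9 and 11.99 RPKM in NGO, GO1, GO2 and FGO. The log2 change was 0.70 from NGO to FGO and 0.72 from GO1 to GO2, a 1.62-fold and a 1.65-fold difference. Its counting intervals were 7.43 to 7.90 RPKM in NGO and 11.7 to 12.3 RPKM in FGO. Only 0.806 % of its windows were found in another gene, the lowest share of the cluster. Over all 14840 genes tested in both pairs, 34.5 % were higher in the later library of both.

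**Figure D2:**
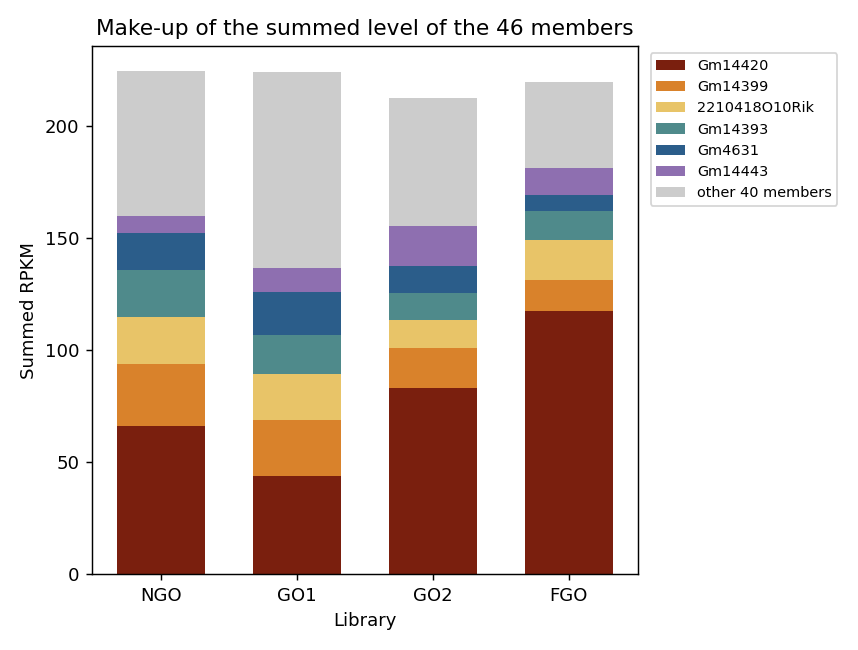
Summed RPKM of the 46 members in each library as stacked bars, with 6 members drawn one by one and the other 40 together in grey. The bars are of nearly equal height (213 to 225 RPKM), while the part of Gm14420 goes from 43.9 RPKM in GO1 to 117 RPKM in FGO.

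Gm14420 alone made up 29.4, 19.6, 39.1 and 53.4 % of the summed RPKM in NGO, GO1, GO2 and FGO. Without it the members summed to 159, 180, 130 and 102 RPKM. The 5 highest members held 67.7, 56.3, 67.5 and 79.2 % of the sum. In NGO and GO1 they were Gm14420, Gm14399, 2210418O10Rik, Gm14393 and Gm4631, and in GO2 and FGO Gm14443 took the place of Gm4631.

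Most of the members were lower in the later library of each pair. Of 41 members with at least 20 reads in NGO and FGO together, 37 were lower in FGO (90.2 %), where 50.5 % of all 15256 genes tested were, and 4 were higher, where 49.5 % of all genes were. The median log2 change of the members was -0.83, and their quartiles were -1.07 and -0.46, beside a median of -0.01 over all genes. The 7 members with under 20 % of their exon windows found in another gene had a median of -0.08. Of these, Gm14420, Gm14443 and Zfp931 were higher in FGO, and Gm14401 (-0.08), Gm14403 (-0.46), Gm14412 (-1.05) and Gm14409 (-1.82) were lower. The classes that share more had medians of -0.86 and -1.01, and there the split of reads among copies is uncertain. These classes were made after the values were seen. No member was 4-fold higher or 4-fold lower, where 8.57 % of all genes were 4-fold higher and 5.52 % were 4-fold lower. At least 2-fold lower in FGO were 17 of the 41 members, 41.5 % against 16.8 % of all genes, and none was 2-fold higher, against 17.7 %. Markers of stroma and theca moved the same way in this pair, from 5.51 to 0.245 RPKM, with 5 of 6 detected in either library and Lum at 0 in FGO. The oocyte markers were also lower, with a median log2 change of -0.70, 9 of 12 lower and 5 of 12 at least 2-fold lower. Most granulosa cell markers were higher, with a median of 0.97, 6 of 8 higher and 4 of 8 at least 2-fold higher. Foxl2 (-1.35) and Amhr2 (-0.75) were the lower ones. Of 3 blood and endothelium markers tested, 1 was higher (Pecam1, 2.53) and 2 were lower. The part of these in the result was not tested.

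From GO1 to GO2 the picture was much the same in direction. Of 43 members tested, 40 were lower in GO2 (93.0 %), where 48.5 % of all 15736 genes were, and 3 were higher, where 51.5 % of all genes were. The median log2 change was -0.68, with quartiles of -0.85 and -0.53, beside 0.02 over all genes. No member was past 4-fold in either direction, against 1.51 % of all genes higher and 0.254 % lower. At least 2-fold lower were 6 of the 43 members, 14.0 % against 2.85 % of all genes, and none was 2-fold higher, against 6.88 %. In this pair the stroma and theca markers summed to 0.158 and 0.238 RPKM, and the median log2 change was -0.18 for the oocyte markers and 0.14 for the 6 granulosa cell markers tested. Of the 41 members tested in both pairs, 36 were lower in the later library of both, which is 87.8 % beside 33.8 % of all 14840 genes. These pairs share no library. The members share sequence with each other and cannot be taken as separate measurements.

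**Figure D3:**
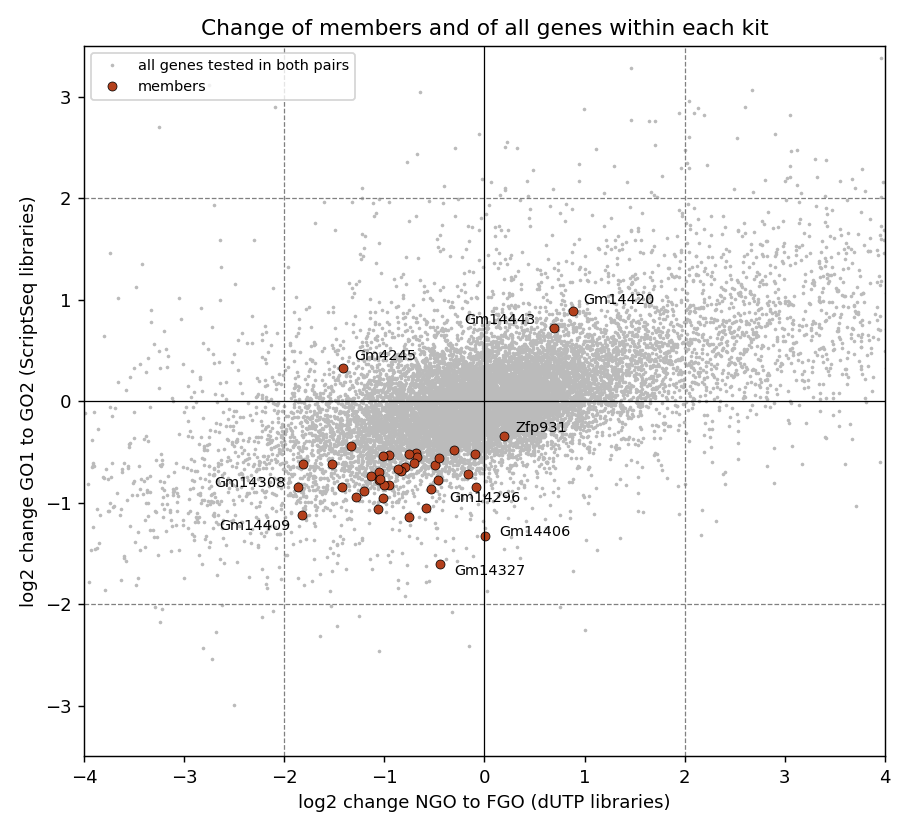
Log2 change from NGO to FGO (x axis, dUTP libraries) and from GO1 to GO2 (y axis, ScriptSeq libraries) for the 41 members (red) and for all 14840 genes tested in both pairs (grey, of which those beyond 4 on the x axis or 3.5 on the y axis are not drawn). Dashed lines mark 4-fold. Of the members, 36 lie at lower left and Gm14420 and Gm14443 in the upper right.

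The rest of the high members were among those that were lower. Gm14399, with 18 fingers in 610 residues, had 27.7, 25.1, 17.8 and 13.8 RPKM in NGO, GO1, GO2 and FGO, so that FGO was 1.93-fold below NGO and GO2 1.44-fold below GO1 on scaled reads. Gm14393, with 3 fingers in a protein of 187 residues, had 20.9, 17.3, 12.02 and 12.6 RPKM, and its log2 changes were -0.68 and -0.56. Gm4631, with 13 fingers in 498 residues, had 16.2, 19.5, 11.96 and 7.15 RPKM, with log2 changes of -1.13 and -0.74. These 3 genes were highest in NGO or GO1. 2210418O10Rik had 21.3, 20.3, 12.7 and 18.3 RPKM, and its log2 change was -0.17 from NGO to FGO and -0.71 from GO1 to GO2. Gm14444 and Gm14440 had log2 changes of -0.68 and -0.49 from NGO to FGO and of -0.51 and -0.63 from GO1 to GO2.

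The members with the largest differences, named after their values were seen, were weakly counted. Gm14308 was at 0.206, 0.242, 0.137 and 0.0527 RPKM in NGO, GO1, GO2 and FGO, on 76, 102, 110 and 21 reads. Its log2 change was -1.87 from NGO to FGO, but -0.19 with a pseudocount of 1 on the RPKM. Gm14409, at 0.870, 1.87, 0.876 and 0.231 RPKM, had log2 changes of -1.82 and -1.12, and it was 1 of 2 members that were at least 2-fold lower in both pairs, with Gm8898 (log2 changes of -1.07 and -1.07). These 2 are 4.88 % of the 41 members tested, beside 1.85 % of all genes. Gm11007 went from 16 reads in NGO to 4 in FGO. From GO1 to GO2, Gm14327 had the largest difference, a log2 change of -1.61 on 53 and 33 reads. Etohi1 (Zfp971), better counted with 685 reads in NGO and 265 in FGO, had 3.03, 2.85, 1.62 and 1.08 RPKM and log2 changes of -1.43 and -0.85.

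Few members went against the common direction. Gm4245 had a log2 change of -1.41 from NGO to FGO and of 0.33 from GO1 to GO2, on 22, 17, 42 and 8 reads in NGO, GO1, GO2 and FGO. Zfp931, which lies at the far end of the cluster and shares 6.91 % of its windows with other genes, was 0.20 higher on the log2 scale in FGO than in NGO and 0.34 lower in GO2 than in GO1. Gm14406 was at 0.01 and -1.33, and its sign from NGO to FGO turned in 1 of 7 alternatives. Gm14401 and Gm14418 were nearly level from NGO to FGO, with log2 changes of -0.08 and -0.09, and had log2 changes of -0.84 and -0.52 from GO1 to GO2. Between GO1 and GO2, Gm2007 and Gm14431 showed a log2 change of 0.00 on at most 68 reads.

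Gm14296 is the gene after which the cluster was chosen, with its values known. It lies at chr2:176892509-176927809 on the minus strand. Its level was 0.176 RPKM in NGO, 2.27 in GO1, 1.36 in GO2 and 0.123 in FGO, on 192, 2844, 3232 and 145 reads. The counting intervals were 0.152 to 0.203, 2.19 to 2.36, 1.31 to 1.40 and 0.104 to 0.144 RPKM in that order. Both ScriptSeq libraries were above both dUTP libraries, and the lower ScriptSeq value was 7.71 times the higher dUTP value. A ratio of this size or more was seen in 101 of 18286 rows with a value above 0 in a dUTP library, or 0.552 %. Gm14296 was the only such member, while Gm11009 and Gm14408, at 0 in NGO and FGO, have no ratio. As Gm14296 was picked with these values known, this share is a description and no support for it being unusual. Stage and kit cannot be told apart in this difference. Within a kit it was like its neighbours, with a log2 change of -0.46 from NGO to FGO and of -0.78 from GO1 to GO2.

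Higher values in the ScriptSeq libraries were common in the cluster. In 23 of the 46 members both ScriptSeq libraries were above both dUTP libraries in RPKM, against 21.6 % of all 18967 detected rows. The same order held for 75.8 % of the detected rows of a zinc finger cluster on chromosome 4, 39.1 % of those of a cluster on chromosome 13 and 30.7 % of the other genes named Zfp with a number, so it was not particular to these members. In no member were both below, against 27.6 % of all rows. After a trimmed-mean scaling of the RPKM between libraries the number was 27, against 24.9 % of all rows. GO1 was the highest library for 33 members, or 71.7 %, beside 19.5 % of all rows. C330013J21Rik (Zfp972) had 0.262, 1.33, 0.652 and 0.164 RPKM in NGO, GO1, GO2 and FGO, and Gm14305 had 0.242, 0.811, 0.429 and 0.0936 RPKM. Gm11009 and Gm14408 were listed at 0 in NGO and FGO and had 3 and 4 reads in GO1. The lncRNA Gm11008 had 1, 5, 7 and 1 reads. Of the 12 members from Gm14435 to Gm14406 with this order, Gm14418 had 2.63, 5.94, 4.24 and 2.38 RPKM. In the first stretch it held for 1 of 10 members, Gm8923.

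The remaining members of the middle and last stretches lay between these extremes. Gm14412 had 3.26, 5.84, 3.52 and 1.52 RPKM in NGO, GO1, GO2 and FGO, and Gm14401 had 1.78, 3.97, 2.26 and 1.62 RPKM. Gm14410 had 0.852, 1.85, 1.07 and 0.408 RPKM, and Gm14403 had 0.562, 1.15, 0.801 and 0.394 RPKM. These 4 were highest in GO1 and lowest in FGO. Gm14295, the gene with the most fingers, had 0.792, 1.503, 1.004 and 0.467 RPKM. In the last stretch Gm14322 had 1.14, 1.67, 1.23 and 0.887 RPKM and log2 changes of -0.31 and -0.48. Gm14325 had 1.30, 1.79, 1.35 and 0.497 RPKM, and its log2 changes were -1.33 and -0.44. Gm14326 had 0.581, 0.788, 0.505 and 0.307 RPKM. FGO was the lowest library for each of these 8 members.

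The members share exon sequence, which bears on how reads can be assigned. A median of 74.2 % of a member's 100-base exon windows, about 1 read length, was also found in a transcript of another gene. For 9 members the share was 100 %, for 13 it was at least 95 %, and for 4 it was under 10 %: Gm14443, Gm14412, Gm14403 and Zfp931. All but 2 members shared only with genes inside the cluster. TopHat was run with option -g 1, which reports 1 alignment per read, so a read that fits several copies could be placed in only 1 of them. How reads were then counted is not given in the sources used here, and the split of reads within a group of copies is uncertain.

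**Figure D4:**
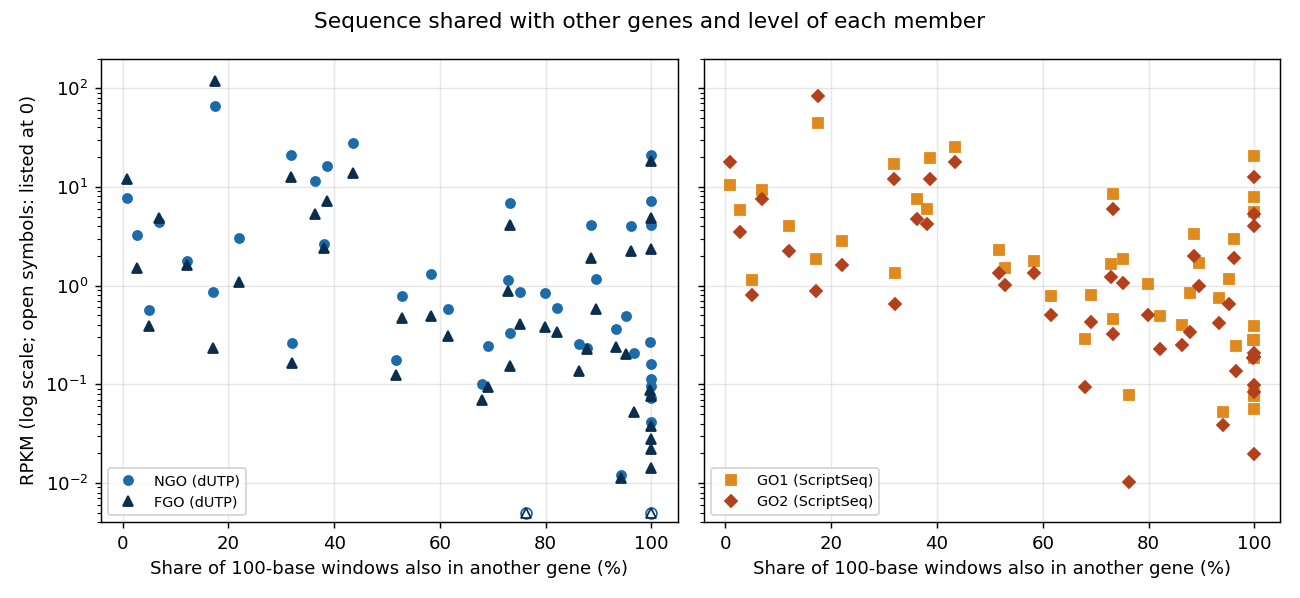
RPKM on a log axis against the share of each member's 100-base windows found in another gene, for the dUTP libraries (left) and the ScriptSeq libraries (right), 1 point per member and library, open symbols at 0.005 for values listed at 0. Members with under 20 % of windows shared all lie above 0.2 RPKM, while the 15 with at least 90 % run from 0 to 21.3 RPKM.

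Median listed levels were lower in the classes of members that share more windows. Levels still varied within a class, and 2210418O10Rik, with 100 % of windows shared, had 21.3 RPKM in NGO. The part of read placement among copies in this was not tested. The 7 members with under 20 % of windows shared had a median of 3.26, 5.84, 3.52 and 1.62 RPKM in NGO, GO1, GO2 and FGO, the 24 with 20 to 90 % had 0.844, 1.69, 1.04 and 0.437 RPKM, and the 15 with at least 90 % had 0.206, 0.284, 0.188 and 0.0754 RPKM. Spearman's rho between the share and the RPKM was between -0.54 and -0.45 over the 46 members of each library, which share these libraries and their sequences. From NGO to FGO the median log2 change was -0.08 in the first class, -0.86 in the second and -1.01 in the third. From GO1 to GO2 the same medians were -0.56, -0.74 and -0.63. Among the 14 members with under 50 % of windows shared, 11 were lower in FGO than in NGO, with a median of -0.63, and 12 were lower in GO2 than in GO1, with a median of -0.63. This split was made after the values were seen.

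Members with identical proteins mostly differed widely in listed level, although their transcripts are not identical throughout. The largest group with 1 identical protein, of 498 residues and 13 fingers, held 7 members, which were Gm4631, Gm4724, Gm11007, Gm2007, Gm2026, Gm14434 and Gm14308. Gm4631 was the highest of them in each library and 225 times the lowest in NGO, 106 times in GO1, 87.4 times in GO2 and 321 times in FGO. The lowest member rested on 12 reads in NGO (Gm2007), 35 in GO1 (Gm2007), 110 in GO2 (Gm14308) and 4 in FGO (Gm11007), so these ratios are imprecise. Of the exon windows of Gm4631, 38.6 % were found in another gene, against 100 % for Gm2007 and Gm11007. A read that fits several copies may have been placed in another of them. Unlike listed levels in these groups thus need not be unlike expression. Gm4723 (Zfp968), Gm4245 (Zfp969), Gm8898 (Zfp966) and Gm14431 (Zfp967) encode 1 protein of 485 residues with 11 fingers, with 4.14, 0.113, 0.835 and 0.0412 RPKM in NGO. Gm14391 and Gm6710 share a protein of 554 residues and had 11.4 and 1.16 RPKM in NGO and 5.27 and 0.578 RPKM in FGO. Gm2004 and Gm14419, with 582 residues and 17 fingers, had 4.09 and 0.256 RPKM in NGO, and their reads stood at 10.4 to 1, 9.30 to 1, 10.4 to 1 and 11.1 to 1 in NGO, GO1, GO2 and FGO. Gm8923 (Zfp965) and Gm14306 (Zfp973), with 318 residues, were alike at 0.361 and 0.327 RPKM in NGO and 0.238 and 0.154 RPKM in FGO.

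Where every window of a member was found in 1 other member, reads were still unequal in most cases. All windows of Gm14440 occur in Gm14288, yet Gm14440 had 2671, 3423, 4324 and 1977 reads in NGO, GO1, GO2 and FGO and Gm14288 had 61, 171, 171 and 31. All windows of 2210418O10Rik occur in Gm14296, of whose own windows 39.9 % occur in 2210418O10Rik. The reads of 2210418O10Rik were 48.2, 3.57, 3.73 and 59.3 times those of Gm14296 in NGO, GO1, GO2 and FGO, so this ratio differed between the kits and was close within each. Gm11007 and Gm2007, whose windows are all common to both, had 16 and 12 reads in NGO, 54 and 35 in GO1, 68 and 68 in GO2 and 4 and 5 in FGO. Gm14306 and Gm14305 overlap on the same strand, and Gm14327 and C330013J21Rik overlap on opposite strands, so that their reads may not be separable either. Gm14435, with no finger in its protein, had 0.594, 0.497, 0.228 and 0.338 RPKM and log2 changes of -0.75 and -1.14.

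The same measures were taken in other genes named Zfp, in clusters on chromosomes 4 and 13 and in the rows beside this cluster. Rows of the clusters and flanks were taken by position only, and were not checked for zinc fingers. The 367 other genes named Zfp with a number had a median log2 change of -0.01 from NGO to FGO and of -0.09 from GO1 to GO2. At least 2-fold lower in FGO than in NGO were 41.5 % of the members, 27.0 % of the tested rows of the chromosome 13 cluster, 19.1 % of the other Zfp genes and 10.3 % of the chromosome 4 cluster. Cluster rows of chromosome 4, 35 in number, had medians of 0.03 and -0.24, and 54 rows of a chromosome 13 cluster had medians of -0.48 and -0.15. The 51 rows before the cluster on chromosome 2 had medians of -0.16 and 0.06, and the 62 after it had -0.12 and -0.03. With 1 library per stage the differences between these groups were not tested.

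A list of 18 genes, made up of 15 of the corepressor machinery through which KRAB proteins act and the 3 KRAB zinc finger genes Zfp57, Zfp445 and Zfp809, was detected in full. At least 3 reads in a library were found for 16565 to 18110 of all 25587 rows. None of the 18 genes of the list was 4-fold higher in the later library of a pair. Over all genes, 8.57 % were so from NGO to FGO and 1.51 % from GO1 to GO2. Hdac1, 1 of 18, was 4-fold lower in FGO than in NGO, where 5.52 % of all genes were. It had 0.682 and 0.153 RPKM in NGO and FGO, on 260 and 63 reads. The medians of the log2 changes were -0.13 from NGO to FGO and -0.10 from GO1 to GO2, and -0.18 and -0.11 for the 15 corepressor genes alone. Trim28 itself had 50.5, 18.1, 27.1 and 56.1 RPKM in NGO, GO1, GO2 and FGO, with log2 changes of 0.20 and 0.55. Setdb1, the H3K9 methyltransferase of the complex, had 26.9, 30.7, 33.6 and 35.0 RPKM. Zfp57, a KRAB zinc finger gene outside the cluster that guards imprinted methylation, had 116, 160, 159 and 154 RPKM, above Gm14420 in each library.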

How the data were processed

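RNA-Seq of NGO, GO1, GO2 and FGO, 1 library each, was analysed. Per the submitters' processing notes, reads were trimmed with Trim Galore (0.2.8) and mapped to GRCm38 with TopHat2 (2.0.9). The methods give the option -g 1, 1 alignment reported per read. The deposited values are RPKM made by the authors for 25587 rows; the counting program, annotation and strand setting are not given in the sources used here. The name of the table speaks of read counts and the tests had been planned for reads, but the values are not whole. Reads were recovered by fitting, on single-exon GENCODE M21 genes, the library total that makes RPKM times length whole (at least 99.6 % of values above 0, within 0.006 of a read), and then a length per gene. For 44 of the 46 members the length was the GENCODE exon union. For Gm8923 and Etohi1 it was the smallest length that gave whole reads. Over all rows 10653 lengths were the exon union, 1460 that of a transcript and 8910 the smallest whole length, and 4564 rows were 0 throughout. With a smallest length the recovered reads may be too few, which bears on the read minimums over all genes. Recovered reads on genes were 61680488 to 133082086 per library. In each library the recovered reads outnumber the raw sequencing reads that the paper lists. A read pair was thus counted more than once on average, so that counting intervals are too narrow and read minimums are easier to pass.

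Scaling factors between libraries were trimmed means of log ratios (TMM-like, 30 % of ratios and 5 % of means trimmed) over all genes, with a prior count of 1 and at least 20 reads in the pair. Calculations were tested on simulated data. A gene was detected with at least 3 reads. Gene structure, proteins and shared windows of 100 bases came from GENCODE M21 transcripts, and promoters from RefSeq. Named genes were Gm14296, members past 4-fold with at least 100 reads (none), the 5 highest members per library, the first and last member and nearest rows outside, members with no finger and those with identical proteins; others were named after their values were seen. The members and all lists were chosen with earlier results of these data known. Alternatives were other scalings, read minimums, prior counts, pseudocounts and thresholds, and subsets of members. Python 3.11.15, numpy 2.4.6, pandas 2.3.3, scipy 1.17.1 and matplotlib 3.10.9 were used.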

Additional observations from a re-analysis of the deposited data

How the results depend on the processing

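No member passed 4-fold in either direction of either pair under any scaling, read minimum, prior count or pseudocount tried. Each of these settings keeps a prior count or a pseudocount, which shrinks the change of members with few reads. Gm11007, with 0.0964 RPKM in NGO and 0.0223 RPKM in FGO on 16 and 4 reads, was such a member. At a threshold of 2-fold, 17 members were lower in FGO and 6 lower in GO2. The median log2 change was -0.22 from NGO to FGO and -0.41 from GO1 to GO2 with a pseudocount of 1 on RPKM, which by construction shrinks the change of low members. Among members with under 50 % of windows shared, fewer were tested, and 11 of 14 were lower in FGO, 12 of 14 lower in GO2, and 7 had both ScriptSeq libraries above both dUTP libraries. Members with C2H2 fingers in the longest GENCODE protein alone (the planned RefSeq protein table was not used here) summed to 195, 191, 192 and 196 RPKM in NGO, GO1, GO2 and FGO, and the 5 highest held 73.0, 61.0, 74.3 and 83.3 % of that. After trimmed-mean scaling between libraries, all members summed to 245, 233 and 228 RPKM in GO1, GO2 and FGO. Both subsets were chosen after the data had been seen. In CPM on genes, which is not per length, they summed to 1151, 1143, 1074 and 1012, and the 5 highest held 71.4, 59.3 and 70.2 % in NGO, GO1 and GO2. Of 235 alternative values for single genes 3 were of the other sign, for Gm14406, Gm2007 and Gm14431, all within 0.05 of 0. No paired analysis was possible because each stage is 1 library. Depth limits the members with few reads: 3 reads are worth 0.0271, 0.0237, 0.0124 and 0.0251 RPKM per kilobase of exon in NGO, GO1, GO2 and FGO.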
